A study of Homo sapiens with 12 samples.

Results

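KISS1, the gene of the precursor of the kisspeptin peptides, and KISS1R, the gene of their receptor, were followed through RNA sequencing of MDA-MB-231 cells and Hs-578T cells, established lines of breast cancer without hormone receptors or amplified ERBB2 (triple negative). They are the 2 genes of 32152 listed, 17665 of them protein coding, whose name is KISS1 or KISS1R. They were picked because KISS1 fell most, among the protein-coding genes tested below, in the libraries of MDA-MB-231 that are labelled ERK5-ko. Each line gave 2 libraries of parental cells, 2 of cells labelled ERK5-ko, in which MAPK7, the gene of the kinase ERK5, was targeted by CRISPR, and 2 of cells labelled MEK5DD, whose MEK5, the ERK5-activating kinase, is always active. The MDA-MB-231 ERK5-ko line is 1 clone, and which of several clones of Hs-578T ERK5-ko was sequenced is not given in the sources used here, nor is the way the MEK5DD cells were made. The labels give passages 29 and 30 for MDA-MB-231 parental, 7 and 8 for its ERK5-ko and 10 and 11 for its MEK5DD libraries, and 83 and 84 for Hs-578T parental against 8 and 9 for both of its engineered groups, so passage and genotype cannot be told apart. Whether the 2 libraries of a group came from separate cultures beyond their passage is not stated, and their spread may be technical.

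Kisspeptins are cut from a secreted precursor and end in an amidated arginine and phenylalanine, the mark of the RF-amide peptides. Their receptor couples to Gq proteins, which activate phospholipase C beta, release calcium through inositol trisphosphate receptors and activate protein kinase C and mitogen-activated protein kinases. KISS1 was first known as a metastasis suppressor of melanoma and breast cancer cells, while in the hypothalamus kisspeptins drive the release of gonadotropin-releasing hormone. In breast cancer cells that lack the oestrogen receptor, signalling by KISS1R has also been described as promoting invasion.

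The deposited values are RPKM, reads on a gene scaled to the length of its model and to the total of its library. The totals lay between 20248162 and 27791195 reads. MAPK7, the targeted gene, had more rather than less RNA in every ERK5-ko library. Its RPKM lay between 13.3 and 14.3 in parental and between 16.3 and 17.8 in ERK5-ko libraries of MDA-MB-231, and between 14 and 16 against 17.8 and 18.1 in those of Hs-578T, so directions below refer to the labels. By Western blot, the paper reports much less ERK5 protein in ERK5-ko cells of both lines, which RNA values do not measure. MAP2K5, the gene of MEK5, lay between 184 and 188 in MDA-MB-231 MEK5DD against 12.9 and 13.6 in parental libraries, and between 21.3 and 23.8 against 14.6 and 16.9 in Hs-578T. ESR1, the oestrogen receptor, was at most 0.12, PGR, the progesterone receptor, at most 0.348 and the leukocyte marker PTPRC at most 0.396 in every library, while ERBB2 lay between 27.8 and 56.8. The mesenchymal marker VIM was at 1598 or more throughout, and the epithelial marker EPCAM lay between 7.08 and 25.7 in MDA-MB-231 and at most at 0.0862 in Hs-578T. KRT18, also an epithelial marker, did not follow EPCAM, with 328 to 692 in MDA-MB-231 and 141 to 596 in Hs-578T. The fibroblast marker COL1A1 lay between 2.76 and 6.93 in MDA-MB-231 and between 5818 and 18528 in Hs-578T.

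KISS1 (ENSG00000170498.8) lies on the minus strand of chromosome 1, chr1:204190341-204196486 of GRCh38, and overlaps no other listed gene. Its longer transcript has 3 exons and 709 bases, and its coding part has 138 codons. The bases below, taken from GENCODE 29, encode the shortest active kisspeptin, a decapeptide (codons 112 to 121), and are shown because this peptide is the part of the precursor that binds the receptor. They lie in exon 3 at chr1:204190529-204190567, minus strand, and capitals mark the 3 codons that follow the decapeptide, the signal for cleavage and amidation.
KISS1 decapeptide codons: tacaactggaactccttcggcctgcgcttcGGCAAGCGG

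The 250 bases before the RefSeq start of KISS1 (GRCh38, chr1:204196492-204196741, minus strand, 5′ to 3′) are shown because the level of its RNA moved with the label of the MDA-MB-231 libraries. Capitals mark TATAAA, the TATA box, and GGGCGG, a core of sites bound by SP1, searched on both strands.
KISS1 upstream region: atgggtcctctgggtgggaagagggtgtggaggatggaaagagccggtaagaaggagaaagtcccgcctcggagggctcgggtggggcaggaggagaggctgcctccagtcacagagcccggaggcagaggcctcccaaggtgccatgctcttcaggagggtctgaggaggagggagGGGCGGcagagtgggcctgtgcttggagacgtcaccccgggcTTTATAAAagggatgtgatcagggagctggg
TATAAA matched once on each strand, in matches that overlap and begin 31 and 29 bases before the start, and 10.7% of the 35116 promoters in the table hold it in the same 250 bases. GGGCGG matched 73 bases before the start, as it did anywhere in 42.6% of promoters. The letters GCCNNNGGC, bound by TFAP2A (19.8% of promoters), TGANTCA of AP-1 (6.57%), TGACGTCA, the full cyclic AMP response element (1.65%), and the MEF2 motif (2.80%) are not in this window. Only these patterns were searched, and other spacings or forms of the sites were not looked for. KISS1R has no entry in the table.

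In MDA-MB-231 parental libraries, KISS1 had an RPKM of 13.3 and 15.6, from 187 and 247 reads. Libraries labelled ERK5-ko had 0.389 and 0.211, from 5 and 3 reads, with exact Poisson 95% intervals of 0.126 to 0.909 and 0.0436 to 0.617. The MEK5DD libraries had 22.2 and 25.5, from 304 and 402 reads. The 3 groups did not overlap, with ERK5-ko lowest, parental in the middle and MEK5DD highest. The level of parental libraries was above that of 59.7% of protein-coding genes, that of ERK5-ko above 28.2% and that of MEK5DD above 70.1%. These cultures are bulk samples, in which fewer cells with the RNA and less RNA per cell cannot be told apart.

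The mean RPKM of KISS1 was 14.5 ± 1.64 (SD, n = 2) in MDA-MB-231 parental, 0.300 ± 0.126 (SD, n = 2) in ERK5-ko and 23.8 ± 2.31 (SD, n = 2) in MEK5DD libraries. Per total read, parental libraries had 49.1 times the KISS1 reads of ERK5-ko libraries (exact 95% interval 24.7 to 114), and the ratio of single libraries ran from 34.2 to 74.0. On the log2(RPKM + 0.5) scale, which understates the change of low values, the difference was -4.23, the lowest of 13737 genes tested, and the next was -3.74 for NGFR, a neurotrophin receptor. KISS1 was picked on this comparison, so the values describe it and no test is given. The size depended on the scale, with -3.57 at a pseudocount of 1, -5.22 at 0.1 and -5.49 on reads by limma voom.

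MEK5DD libraries had 1.65 times the KISS1 reads of parental libraries per total read (interval 1.46 to 1.86), with a ratio of 1.42 for the closest and 1.92 for the farthest libraries. The log2 difference of 0.70 left 746 of 13737 genes with a higher one. This comparison shares its parental libraries with the one that picked the gene, so it too is a description with no test. Between the engineered groups, MEK5DD libraries had 81.0 times the KISS1 reads of ERK5-ko libraries (interval 40.9 to 188). These intervals cover counting error only, not the spread between cultures.

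In Hs-578T, KISS1 was at or near 0 in every library. Both parental libraries had 0 reads, the ERK5-ko libraries had 1 and 0, and the MEK5DD libraries had 0 and 1. The floor of 3 reads is an RPKM of 0.231 and 0.254 in the parental libraries. It is a setting, and the exact Poisson 95% intervals of their counts of 0 reach somewhat higher, to 0.284 and 0.313. With 3 reads a library as the floor, KISS1 was at least 59.6-fold higher in MDA-MB-231 than in Hs-578T parental libraries. No fold or test is given within Hs-578T, since all its groups were under the floor. At this depth a fall from the parental level was not detectable, and no library of the engineered groups rose above 3 reads. The order of the levels was MDA-MB-231 MEK5DD, parental and ERK5-ko, and then the 3 groups of Hs-578T, whose counts of 0 and 1 do not differ beyond counting error. The 3 reads of MDA-MB-231 ERK5-ko replicate 2 are at the floor, so this group is not clearly above those of Hs-578T.

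**Figure D1:**
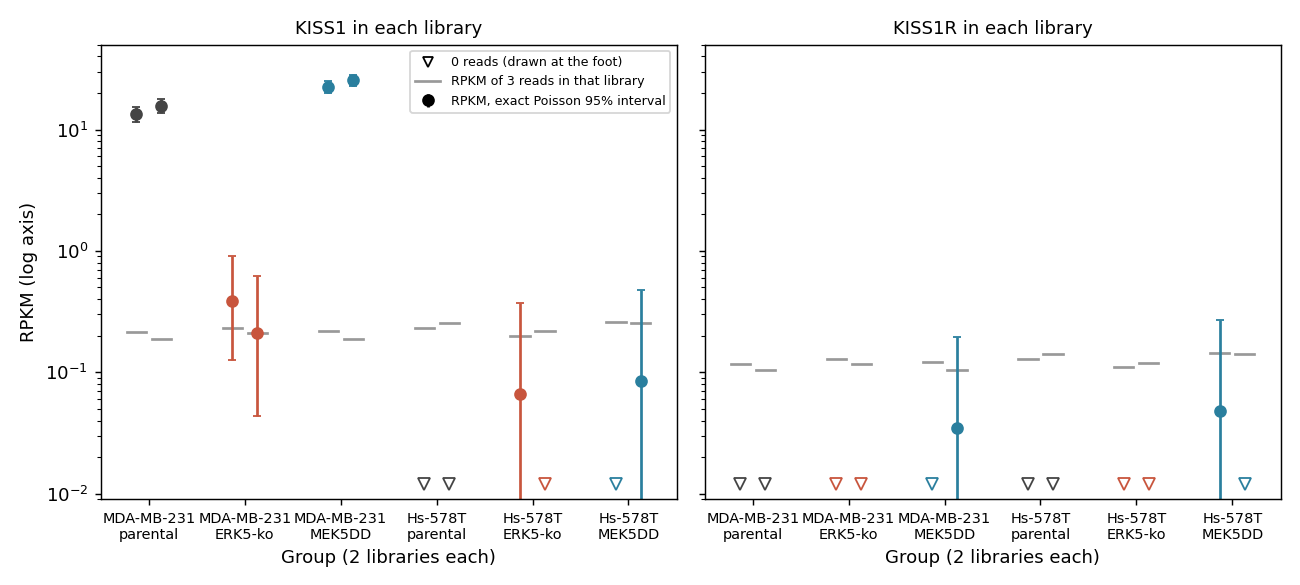
RPKM of KISS1 (left) and KISS1R (right) in each of the 12 libraries, on a log axis, by group. Points are libraries with at least 1 read, with exact Poisson 95% intervals (lower ends below the axis are cut), open triangles are libraries with 0 reads and grey bars the RPKM of 3 reads. KISS1 lay between 13.3 and 25.5 in MDA-MB-231 parental and MEK5DD libraries and at 0.389 or below in all others, and KISS1R stayed under the grey bars everywhere.

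KISS1R (ENSG00000116014.9, plus strand, chr19:917287-921015 of GRCh38, overlapping no other listed gene) had 2 reads over all 12 libraries. One MDA-MB-231 MEK5DD library held 1 read (RPKM 0.0351), 1 Hs-578T MEK5DD library held the other (0.0480), and the other 10 had 0. In no library did the floor of 3 reads come to an RPKM above 0.144. No group was above the floor of 3 reads, so no fold or test is given. RNA of the receptor was not detectable at this depth in either line, in libraries with much KISS1 RNA as in those with little.

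Genes near the pathway were taken from lists and tested with limma over all genes, with 13737 tested. In MDA-MB-231 ERK5-ko against parental libraries, the comparison on which KISS1 was picked, whose list counts are therefore only set beside the background, 6.91% of all genes tested were higher and 10.4% lower (adjusted p under 0.05), and 3.87% also passed the fold thresholds (above 1.5 or below 0.5). In MDA-MB-231 MEK5DD, 17.5% were higher, 23.8% lower and 13.9% past the fold thresholds. In Hs-578T ERK5-ko, 19.7% were higher and 19.7% lower, with 12.6% past the fold thresholds. In Hs-578T MEK5DD, 6.44% were higher, 17.0% lower and 4.38% past the fold thresholds. The median log2 difference of all genes was -0.04, -0.01, 0.01 and -0.08 in the same order. Comparisons within a line share their parental libraries, so their values stand side by side below.

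Of 11 other RF-amide peptides, their receptors and galanin receptors, 7 were listed and only NPFFR2, a receptor of neuropeptide FF, passed the filter on low values. It did so only through the engineered libraries of Hs-578T, so its adjusted p values in that line add no support. Its levels in MDA-MB-231 lay under the filter, and its highest count in any library was 28 reads. Its RPKM was 0.157 and 0.140 in MDA-MB-231 parental libraries and is listed at 0 in all 4 engineered ones. In Hs-578T it was 0.368 and 0.374 in parental, 0.517 and 0.640 in ERK5-ko and 0.894 and 0.851 in MEK5DD libraries. The groups did not overlap, below parental in the first line and above it in the second. The difference on the log2(RPKM + 0.5) scale was -0.37 in both engineered groups of MDA-MB-231 (adjusted p = 0.0201 for ERK5-ko and 0.00821 for MEK5DD), 0.31 in Hs-578T ERK5-ko (adjusted p = 0.0249) and 0.66 in Hs-578T MEK5DD (adjusted p = 0.000732). Without any 1 of the 4 libraries compared, the adjusted p for MDA-MB-231 ERK5-ko lay between 0.0845 and 0.126, without parental replicate 1 that for MEK5DD was 0.0564, and that for Hs-578T ERK5-ko was 0.0655 to 0.156 without either parental library or ERK5-ko replicate 2.

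Of 22 genes of signalling below KISS1R, 20 were tested. In MDA-MB-231 ERK5-ko, 2 were higher and 3 lower, and the median of the list was -0.07. In MDA-MB-231 MEK5DD, 4 were higher and 7 lower (median -0.03), in Hs-578T ERK5-ko 8 were higher and 1 lower (median 0.26), and in Hs-578T MEK5DD 1 was higher and 4 lower (median -0.10).

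Among the G proteins and phospholipases, GNAQ and GNA11, the Gq family subunits that couple to KISS1R, were expressed in every library. GNAQ lay between 13.5 and 15.7 in MDA-MB-231. In Hs-578T its RPKM was 11.4 and 13.3 in parental and 16.5 and 18.1 in ERK5-ko libraries (log2 difference 0.47, adjusted p = 0.0117), and GNA11 was 94.1 and 96.8 against 142 and 135 (0.53, adjusted p = 0.00460). Both thus rose in Hs-578T ERK5-ko, where the groups did not overlap. PLCB1, a phospholipase C beta, had 0.0437 and 0.0259 in MDA-MB-231 parental and 2.23 and 1.80 in MEK5DD libraries (log2 difference 2.23, adjusted p = 6.45e-07), beside 12.5 to 17.1 in all of Hs-578T. PLCB4 went the other way in MDA-MB-231 MEK5DD, from 1.89 and 1.85 to 0.181 and 0.102 (-1.89, adjusted p = 5.93e-06), and had 3.73 and 2.89 in ERK5-ko libraries (0.68, adjusted p = 0.0212). In Hs-578T ERK5-ko, PLCB4 was 7.15 and 7.09 against 4.51 and 5.16 (0.52, adjusted p = 0.0353). PLCB3, the phospholipase C beta with the highest level here, did not pass in any comparison and lay between 17.1 and 41.6. GNAQ lost its call without Hs-578T ERK5-ko replicate 2 or parental replicate 1 (adjusted p 0.0968 and 0.0851). PLCB4 lost its call in MDA-MB-231 ERK5-ko without ERK5-ko replicate 1 or either parental library (0.105 to 0.163), and in Hs-578T ERK5-ko without either ERK5-ko library or parental replicate 1 (0.120 to 0.157).

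Among the calcium channels and kinases, ITPR2, an inositol trisphosphate receptor, was 7.27 and 6.64 in MDA-MB-231 parental and 13.9 and 11.9 in MEK5DD libraries (log2 difference 0.84, adjusted p = 0.00624). It also rose in Hs-578T ERK5-ko, from 3.67 and 5.71 to 10.1 and 9.70 (1.03, adjusted p = 0.00222). ITPR3, of the same family, fell in MDA-MB-231 MEK5DD from 58.6 and 56.2 to 37.4 and 37.6 (-0.61, adjusted p = 0.00250). The protein kinase C genes differed from each other. PRKCE had 22.1 and 22.3 in MDA-MB-231 parental, 15.1 and 16.2 in ERK5-ko and 61.0 and 63.4 in MEK5DD libraries (-0.49, adjusted p = 0.0118, and 1.47, adjusted p = 1.26e-06). PRKCA passed only in Hs-578T ERK5-ko, at 47.6 and 50.7 against 26.3 and 37.9 (0.63, adjusted p = 0.0209). PRKCD was lower in both MEK5DD groups, by -0.26 in the first line (adjusted p = 0.0207) and -0.29 in the second (adjusted p = 0.0240). In MDA-MB-231 ERK5-ko its difference was nearly the same, -0.25, without passing (adjusted p = 0.0504). MAPK3, the gene of ERK1, was 42.5 and 48.9 in MDA-MB-231 parental against 54.9 and 60.1 in ERK5-ko libraries (0.33, adjusted p = 0.0277). In Hs-578T it fell from 54.7 and 54.2 to 35.9 and 36.3 in ERK5-ko (-0.59, adjusted p = 0.000435) and to 42.6 and 41.1 in MEK5DD libraries (-0.38, adjusted p = 0.0120).

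Several of these calls rest on single libraries. Without ERK5-ko replicate 1 or either parental library, PRKCE in MDA-MB-231 ERK5-ko had an adjusted p of 0.0770 to 0.0865, and without either ERK5-ko library or parental replicate 1, MAPK3 there had 0.0550 to 0.262. ITPR2 in MDA-MB-231 MEK5DD had 0.0596 without MEK5DD replicate 1. PRKCD had 0.0832 to 0.175 in MDA-MB-231 MEK5DD without MEK5DD replicate 2 or either parental library, and 0.0644 and 0.0785 in Hs-578T MEK5DD without either parental library. PRKCA had 0.0671 to 0.175 without either ERK5-ko library or parental replicate 1.

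The arrestins and the receptor kinase, which switch off and redirect signalling of receptors such as KISS1R, were lower in MDA-MB-231 MEK5DD. ARRB1 fell from 33.7 and 36.7 in parental to 2.21 and 2.17 in MEK5DD libraries, a log2 difference of -3.73 (standard error 0.105, adjusted p = 4.43e-10), and was 38.7 and 42.5 in ERK5-ko libraries (0.20, adjusted p = 0.225). ARRB2 fell from 29.9 and 31.0 to 12.7 and 14.7 (-1.13, adjusted p = 1.05e-05) and GRK2 from 73.8 and 73.1 to 44.3 and 46.9 (-0.68, adjusted p = 0.000467). None of these groups overlapped, which in this comparison also held for genes that did not pass, such as PLCB3. In Hs-578T MEK5DD, ARRB1 was 19.3 and 23.0 against 30.8 and 29.1 (-0.50, adjusted p = 0.00638) and ARRB2 18.4 and 17.3 against 26.4 and 24.2 (-0.49, adjusted p = 0.00982). ARRB2 was higher in Hs-578T ERK5-ko, at 33.4 and 31.5 (0.36, adjusted p = 0.0259). The call of ARRB2 was lost in Hs-578T MEK5DD without parental replicate 1 (0.0524), and in Hs-578T ERK5-ko without either ERK5-ko library or parental replicate 2 (0.0749 to 0.128).

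Of the genes further down, PXN, the focal adhesion adaptor paxillin, was 250 and 266 in MDA-MB-231 parental, 176 and 186 in ERK5-ko and 175 and 178 in MEK5DD libraries (log2 difference -0.51, adjusted p = 0.00601, and -0.54, adjusted p = 0.00127). In Hs-578T ERK5-ko it was higher, 100 and 102 against 60.0 and 62.9 (0.71, adjusted p = 0.000293). PTK2, the focal adhesion kinase, had the same directions in ERK5-ko libraries, -0.38 in the first line (adjusted p = 0.0422) and 0.36 in the second (adjusted p = 0.0274). RCAN1, a target of calcium and calcineurin signalling, rose in both MEK5DD groups. Its RPKM went from 41.4 and 42.4 to 70.8 and 82.8 in MDA-MB-231 (0.86, adjusted p = 0.000117) and from 13.5 and 16.7 to 18.8 and 21.5 in Hs-578T (0.41, adjusted p = 0.0260). The calls of PTK2 were lost in MDA-MB-231 without ERK5-ko replicate 2 or either parental library (0.121 to 0.300) and in Hs-578T without ERK5-ko replicate 2 or parental replicate 1 (0.185 and 0.159). PXN in MDA-MB-231 ERK5-ko had 0.0546 without ERK5-ko replicate 1 and 0.0673 without parental replicate 2, and RCAN1 in Hs-578T MEK5DD had 0.0857 without MEK5DD replicate 2 and 0.158 without parental replicate 1.

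**Figure D2:**
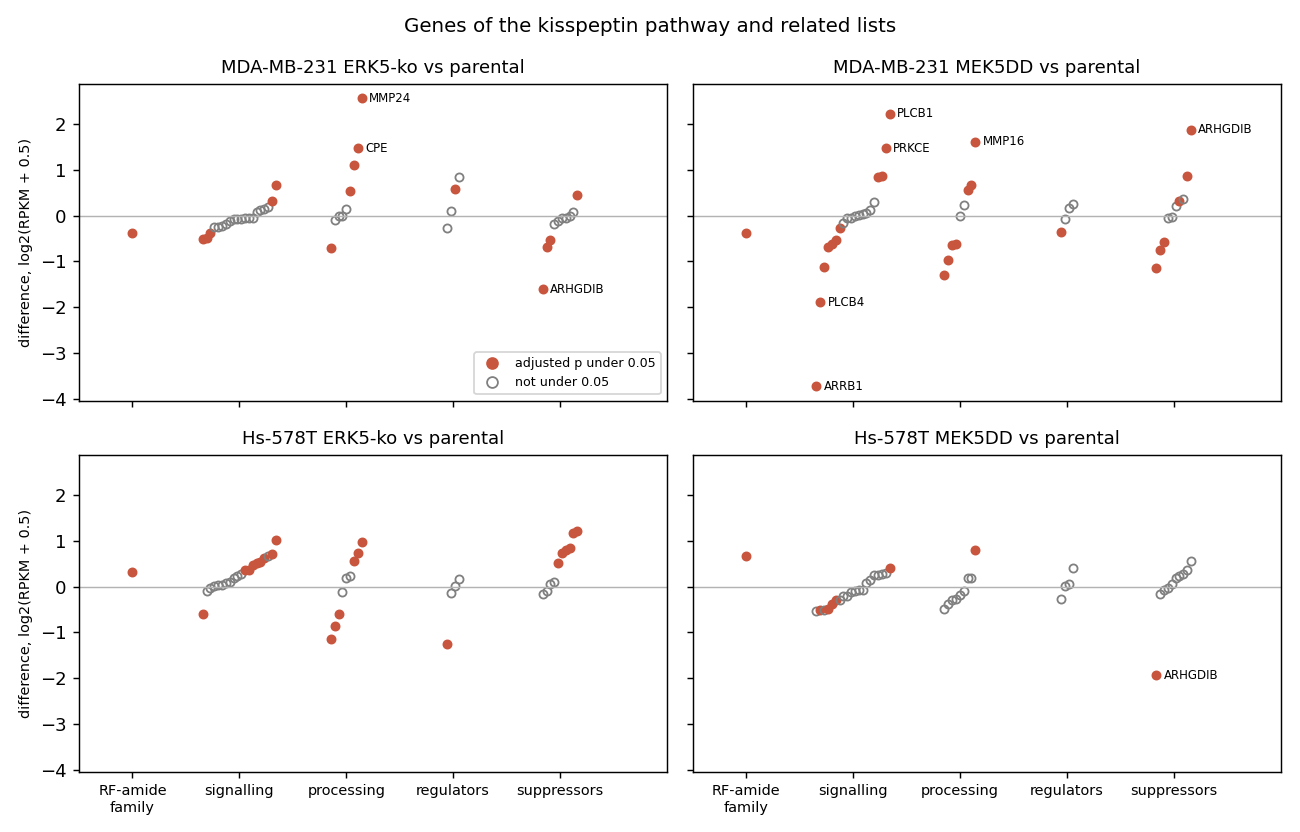
Difference from parental libraries on the log2(RPKM + 0.5) scale of each listed gene tested, by list and comparison. Filled points have an adjusted p under 0.05 (limma) and the ones farthest from 0 are named. ARRB1 at -3.73 in MDA-MB-231 MEK5DD and MMP24 at 2.57 in MDA-MB-231 ERK5-ko are the points farthest from 0, and ARHGDIB lies on opposite sides of 0 in the engineered groups of each line.

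Of 13 genes of enzymes that process kisspeptin or cut it, 9 were tested. In MDA-MB-231 ERK5-ko 4 were higher and 1 lower (median 0.15), in MDA-MB-231 MEK5DD 3 were higher and 4 lower (median 0.00), in Hs-578T ERK5-ko 3 were higher and 3 lower (median 0.19), and in Hs-578T MEK5DD 1 was higher (median -0.19).

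Of the enzymes that mature the peptide, FURIN, a convertase that cuts such precursors, was 72.1 and 70.0 in MDA-MB-231 parental and 44.8 and 47.6 in MEK5DD libraries (log2 difference -0.62, adjusted p = 0.00228). In Hs-578T ERK5-ko it was 76.6 and 72.2 against 45.8 and 55.9 (0.55, adjusted p = 0.00531). PCSK2, a convertase of neuroendocrine cells, is listed at 0 in all of MDA-MB-231 and had 0.924 and 0.891 in Hs-578T ERK5-ko against 0.145 and 0.288 in parental libraries (0.98, adjusted p = 8e-05). PCSK2 passed the filter on low values only through these ERK5-ko libraries, so its call, counted above, adds no support. CPE, which trims basic residues after the cut, rose in both engineered groups of MDA-MB-231. Its RPKM was 11.1 and 10.6 in parental, 35.0 and 27.9 in ERK5-ko (1.48, adjusted p = 1.07e-05) and 18.1 and 17.1 in MEK5DD libraries (0.67, adjusted p = 0.000512). In Hs-578T it fell from 87.4 and 90.8 to 58.4 and 59.5 in ERK5-ko (-0.59, adjusted p = 0.00162) and rose to 168 and 145 in MEK5DD libraries (0.81, adjusted p = 0.000553). PAM, the enzyme that amidates the peptide, was 171 and 157 in MDA-MB-231 parental, 258 and 219 in ERK5-ko (0.54, adjusted p = 0.00434) and 107 and 100 in MEK5DD libraries (-0.65, adjusted p = 0.000332). PAM lay between 249 and 286 in Hs-578T. Its call in MDA-MB-231 ERK5-ko was lost without ERK5-ko replicate 1 (0.0515) or parental replicate 2 (0.0578).

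Of the matrix metalloproteinases, a family of which members cut kisspeptin within the decapeptide, 5 are in the list, and MMP14 had the highest level of these in MDA-MB-231. Its RPKM was 425 and 452 in parental, 269 and 267 in ERK5-ko (log2 difference -0.71, adjusted p = 0.00116) and 631 and 664 in MEK5DD libraries (0.56, adjusted p = 0.00137). In Hs-578T ERK5-ko it fell from 368 and 445 to 193 and 175 (-1.14, adjusted p = 1.4e-05). MMP24 had 1.26 and 1.17 in MDA-MB-231 parental, 11 and 8.48 in ERK5-ko (2.57, adjusted p = 7.63e-07) and 0.179 and 0.213 in MEK5DD libraries (-1.30, adjusted p = 1.1e-05). In each engineered group of this line, 1 of MMP14 and MMP24 was higher and the other lower. MMP16 was higher in both of them, at 1.76 and 1.41 in ERK5-ko (1.11, adjusted p = 0.00734) and 2.67 and 2.26 in MEK5DD (1.62, adjusted p = 0.000188) against 0.456 and 0.466 in parental libraries. It was also higher in Hs-578T ERK5-ko, at 29.3 and 32.3 against 14.8 and 22.5 (0.74, adjusted p = 0.0268). MMP2 was at most 1.10 in MDA-MB-231, where it was lower in MEK5DD libraries (-0.97, adjusted p = 0.000135), and fell in Hs-578T ERK5-ko from 747 and 839 to 455 and 418 (-0.86, adjusted p = 0.000453). MMP16 lost its call in MDA-MB-231 ERK5-ko without ERK5-ko replicate 1 or either parental library (0.0509 to 0.0675) and in Hs-578T ERK5-ko without either ERK5-ko library or parental replicate 1 (0.0742 to 0.207).

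Of 6 genes described as regulators of KISS1 transcription, 4 were tested. In MDA-MB-231 ERK5-ko 1 was higher (median 0.34), in MDA-MB-231 MEK5DD 1 was lower (median 0.05), in Hs-578T ERK5-ko 1 was lower (median -0.06), and in Hs-578T MEK5DD 0 passed by limma, also at an unadjusted p under 0.05 and by limma voom (median 0.03). TFAP2A, a factor described as acting on the KISS1 promoter with SP1, was 5.85 and 6.39 in MDA-MB-231 parental and 10.1 and 8.66 in ERK5-ko libraries (log2 difference 0.58, adjusted p = 0.0175), and lay between 40.5 and 54.3 in Hs-578T, where KISS1 was at the floor. SP1 did not pass in any comparison and was 30.8 and 30.5 in MDA-MB-231 parental, 26.7 and 23.8 in ERK5-ko and 29.1 and 28.8 in MEK5DD libraries. MED23, a subunit of Mediator, was 12 and 11.6 in MDA-MB-231 parental and 8.97 and 9.14 in MEK5DD libraries (-0.36, adjusted p = 0.0483). TXNIP, described upstream of KISS1 in melanoma cells, was 161 in each MDA-MB-231 parental library, 323 and 262 in ERK5-ko (0.85, adjusted p = 0.0576) and 185 and 197 in MEK5DD libraries. In Hs-578T it was 1.77 and 3.36 in parental and 0.793 and 0.698 in ERK5-ko libraries (-1.25, adjusted p = 0.00456). By level, TXNIP, SP1 and MED23 were higher and TFAP2A lower in MDA-MB-231 than in Hs-578T. The lines were not tested against each other, and the share of all genes that separate them was not taken. Within MDA-MB-231, TXNIP was highest in the ERK5-ko libraries, where KISS1 was lowest. These are descriptions of the levels. TFAP2A lost its call without ERK5-ko replicate 1 or either parental library (0.0661 to 0.133) and MED23 without any 1 of the 4 libraries compared (0.130 to 0.188).

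All 10 genes of a list of other metastasis suppressors were tested. In MDA-MB-231 ERK5-ko 1 was higher and 3 were lower (median -0.08), in MDA-MB-231 MEK5DD 3 were higher and 3 lower (median 0.10), in Hs-578T ERK5-ko 6 were higher (median 0.62), and in Hs-578T MEK5DD 1 was lower (median 0.12). The 6 of 10 in Hs-578T ERK5-ko stand beside the 19.7% of all genes that were higher there.

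ARHGDIB, an inhibitor of small GTPases, passed in all 4 comparisons. Its RPKM was 95 and 102 in MDA-MB-231 parental, 31.1 and 33.3 in ERK5-ko and 364 in each MEK5DD library. In Hs-578T it was 7.62 and 7.38 in parental, 13.4 and 12.1 in ERK5-ko and 1.71 and 1.49 in MEK5DD libraries. No groups of a line overlapped, and the order of the engineered groups was opposite in the 2 lines. In MDA-MB-231 the log2 differences were -1.60 for ERK5-ko (adjusted p = 1.53e-06) and 1.88 for MEK5DD (adjusted p = 3.89e-08). In Hs-578T they were 0.73 for ERK5-ko (adjusted p = 0.000128) and -1.93 for MEK5DD (adjusted p = 3.72e-07).

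CD82, a tetraspanin, was 201 and 210 in MDA-MB-231 parental, 130 and 153 in ERK5-ko (log2 difference -0.54, adjusted p = 0.00342) and 257 in each MEK5DD library (0.32, adjusted p = 0.0200). In Hs-578T ERK5-ko it rose from 73.1 and 68.7 to 122 and 135 (0.85, adjusted p = 5.82e-05). NDRG1, a stress-induced gene, was 271 and 287 in parental, 387 and 372 in ERK5-ko (0.45, adjusted p = 0.00915) and 174 and 199 in MEK5DD libraries (-0.58, adjusted p = 0.000563). AKAP12, a scaffold of protein kinases A and C, fell in MDA-MB-231 ERK5-ko from 8.58 and 8.01 to 5.64 and 4.36 (-0.69, adjusted p = 0.0425) and rose in Hs-578T ERK5-ko from 1.87 and 2.96 to 4.10 and 4.83 (0.79, adjusted p = 0.0110). DLC1, a tumour suppressor, was higher in MDA-MB-231 MEK5DD at 112 and 110 against 59.5 and 61.5 (0.87, adjusted p = 0.00301) and in Hs-578T ERK5-ko at 107 and 119 against 44.1 and 56.0 (1.18, adjusted p = 0.000541). MAP2K4, a kinase upstream of JNK, was 28.8 and 26.1 against 48.4 and 44.2 in MDA-MB-231 MEK5DD (-0.75, adjusted p = 0.000122) and 31.4 and 32.9 against 21.5 and 23.4 in Hs-578T ERK5-ko (0.51, adjusted p = 0.00219). CDH1, the epithelial cadherin, stayed at 1.16 or below, with 0.640 and 0.650 in MDA-MB-231 parental against 0.0376 and 0 in MEK5DD libraries (-1.14, adjusted p = 2.95e-05) and 0.119 and 0.218 in Hs-578T parental against 0.930 and 1.16 in ERK5-ko libraries (1.21, adjusted p = 3.45e-05). NME1, BRMS1 and PEBP1 did not pass in any comparison.

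Among these, CD82 in MDA-MB-231 MEK5DD and AKAP12 in MDA-MB-231 ERK5-ko lost their calls without any 1 of the 4 libraries compared (adjusted p 0.0652 to 0.122 and 0.0661 to 0.266). NDRG1 in MDA-MB-231 ERK5-ko had 0.0695 without ERK5-ko replicate 1 and 0.0955 without parental replicate 1, and AKAP12 in Hs-578T ERK5-ko had 0.0964 without ERK5-ko replicate 2 and 0.0951 without parental replicate 1.

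The spread was estimated over both lines, and some calls of listed genes did not hold otherwise. With only the libraries of Hs-578T in the fit, GNAQ, GNA11, PLCB4, PRKCA, ARRB2, PTK2, FURIN, MMP16, TXNIP, AKAP12, NPFFR2 and the KISS1 neighbour PLEKHA6 in ERK5-ko had adjusted p values from 0.0556 to 0.132, and ARRB1, ARRB2, MAPK3, PRKCD, RCAN1 and the KISS1 neighbour ETNK2 in MEK5DD had values from 0.0524 to 0.144. Median-ratio scaling took AKAP12 (0.0569) and PTK2 (0.0651) in MDA-MB-231 ERK5-ko, MED23 in MDA-MB-231 MEK5DD (0.0568) and PRKCD in Hs-578T MEK5DD (0.0918) past 0.05. By limma voom, NPFFR2 in Hs-578T ERK5-ko had 0.103.

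Of 7 protein-coding genes within 250 kb of KISS1, 5 were tested, and the nearest, GOLT1A at 1.67 kb, was under the filter with at most 0.139. In MDA-MB-231 ERK5-ko 1 was higher (median -0.18), in MDA-MB-231 MEK5DD 1 was higher and 3 lower (median -0.69), in Hs-578T ERK5-ko 1 was higher and 1 lower (median -0.14), and in Hs-578T MEK5DD 1 was lower (median -0.26). PLEKHA6, 22.4 kb away and the nearest expressed gene, was 9.48 and 10.2 in MDA-MB-231 parental, 7.69 and 7.92 in ERK5-ko (log2 difference -0.32, adjusted p = 0.235) and 14.3 and 14.4 in MEK5DD libraries (0.53, adjusted p = 0.0275). The groups did not overlap, and the call in MEK5DD was lost without any 1 of the 4 libraries (0.0745 to 0.139). ETNK2, an ethanolamine kinase 38.3 kb away on the other side, was 25.3 and 25.8 in parental, 35.0 and 31.4 in ERK5-ko (0.37, adjusted p = 0.0247) and 14.9 and 16.3 in MEK5DD libraries (-0.69, adjusted p = 0.000171). Its call in ERK5-ko was lost without ERK5-ko replicate 1 or either parental library (0.117 to 0.170). The 5 neighbours lay between -0.32 and 0.50 in MDA-MB-231 ERK5-ko, beside -4.23 for KISS1. In Hs-578T ERK5-ko, PLEKHA6 was higher (0.63, adjusted p = 0.0123) and ETNK2 lower (-0.59, adjusted p = 0.000717), and PLEKHA6 lost its call without either ERK5-ko library or parental replicate 1 (0.0509 to 0.0925). ETNK2 was also lower in Hs-578T MEK5DD (-0.43, adjusted p = 0.00983).

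Of 22 protein-coding genes within 250 kb of KISS1R, 18 were tested. In MDA-MB-231 ERK5-ko 5 were higher and 1 lower (median 0.12), in MDA-MB-231 MEK5DD 3 were higher and 7 lower (median -0.01), in Hs-578T ERK5-ko 1 was higher and 7 lower (median 0.02), and in Hs-578T MEK5DD 1 was higher and 2 lower (median -0.18). Of the genes lower in Hs-578T ERK5-ko, LPPR3 and GRIN3B passed the filter on low values only through the parental and MEK5DD libraries of that line. Their calls, counted here, thus add no support. The receptor gene at the floor lies between expressed genes. R3HDM4, 4.04 kb away, had 52.4 to 73.0 in MDA-MB-231 and 75.3 to 106 in Hs-578T, and ARID3A, a DNA-binding protein gene 4.77 kb away on the other side, had 1.76 to 4.42 and 9.12 to 13.8. R3HDM4 was higher in MDA-MB-231 ERK5-ko (log2 difference 0.30, adjusted p = 0.0301) and lower in Hs-578T ERK5-ko (-0.39, adjusted p = 0.00306), and the first call was lost without any 1 of the 4 libraries compared (0.103 to 0.168). ARID3A was higher in MDA-MB-231 MEK5DD (0.92, adjusted p = 0.000589).

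**Figure D3:**
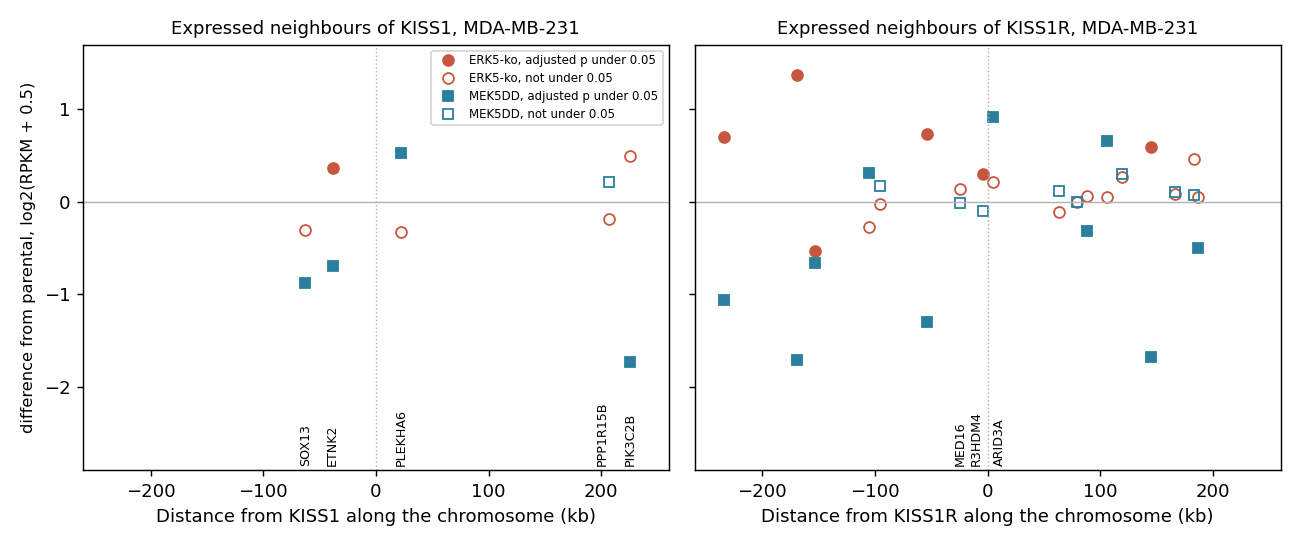
Difference from MDA-MB-231 parental libraries, on the log2(RPKM + 0.5) scale, of the expressed protein-coding genes within 250 kb of KISS1 (left, 5 genes) and KISS1R (right, 18 genes), by distance in kilobases from the gene (dotted line), with names for all left-hand genes and for the 3 nearest to KISS1R. Circles are ERK5-ko and squares MEK5DD libraries, filled at an adjusted p under 0.05 (limma), and the ERK5-ko circles of the KISS1 neighbours lie between -0.32 and 0.50.

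The 5 tested genes with the highest Pearson correlation with KISS1 of log2(RPKM + 0.5) over the 12 libraries were ITGB2 (r = 0.988), POU2F2 (0.976), USP44 (0.975), TGFBR2 (0.969) and HLA-DRB5 (0.967). The libraries share 2 cell lines and 6 groups, so these are descriptions. ITGB2, an integrin chain of leukocytes, had a mean RPKM of 2.11 in MDA-MB-231 parental, 0.208 in ERK5-ko and 3.27 in MEK5DD libraries, and between 0.0487 and 0.213 in the groups of Hs-578T. TGFBR2, a receptor of TGF-beta, had 44.7, 21.9 and 66.2 in MDA-MB-231 and between 18.9 and 24.4 in Hs-578T. POU2F2, a POU transcription factor, had 4.40, 1.01 and 9.48 in MDA-MB-231 and at most 0.445 in Hs-578T, USP44, a deubiquitinase, had 0.685, 0.144 and 0.999 and at most 0.126, and HLA-DRB5, a class II histocompatibility gene with close paralogs that can share its reads, had 2.95, 0.650 and 3.69 and at most 0.0165. All 5 were lowest in ERK5-ko and highest in MEK5DD among the MDA-MB-231 means, as the measure of likeness favours. With Spearman's correlation 0 of these 5 were among the first 5, and with a pseudocount of 0.1 there were 2.

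**Figure D4:**
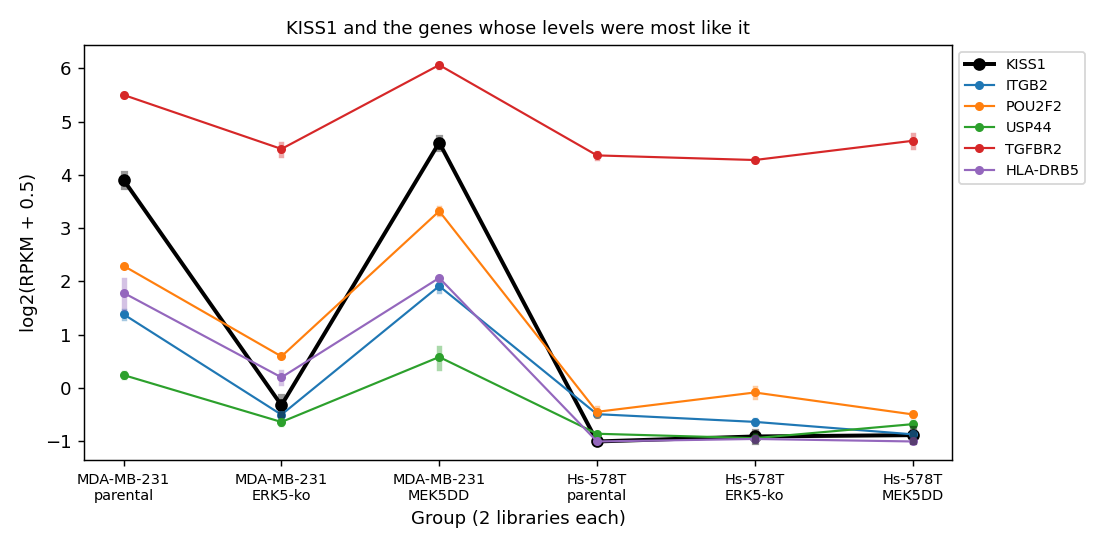
Mean log2(RPKM + 0.5) of KISS1 (black) and of the 5 genes with the most similar levels, computed from the mean RPKM of each group, with vertical bars from the lower to the higher of the 2 libraries. All 6 lines fall from MDA-MB-231 parental to ERK5-ko and peak in MEK5DD, and KISS1 drops the most, from a mean RPKM of 14.5 to 0.300.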

How the data were processed

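The 12 RNA libraries, of MDA-MB-231 cells and of Hs-578T cells, were grouped by the labels. The authors deposited RPKM values on GRCh38 coordinates. The submitters' processing notes name bcl2fastq, Trimmomatic 0.32, TopHat2 2.1.1, R 3.3.1 and DESeq2 1.12.4. The counting tool and annotation release are not given in the sources used here. Per the labels, a stranded mRNA kit was used. Library totals and whole reads were solved from the RPKM steps, which gave whole reads for 32151 of 32152 genes (relative tolerance 1e-06), while totals moved by a random amount gave whole reads for 0 of 500 genes. A count of 3 reads a library was taken as the floor.

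Of the protein-coding genes, 13737 reached an RPKM of 0.5 in 2 libraries or more. A model of 6 group means with a variance trend was fitted to their log2(RPKM + 0.5) over the 12 libraries (limma 3.58.1, R 4.3.3), with Benjamini-Hochberg adjustment within each comparison. The test was checked on simulated reads, where it called 99% of 200 changed genes and 4 unchanged ones. All simulated libraries had the same spread, while that of the real replicates differed between groups. The check thus does not cover this difference, nor changes smaller than the large ones drawn. KISS1 passed the filter, but its values in Hs-578T were under the floor and its differences in MDA-MB-231 are descriptions. KISS1R did not pass. Alternatives changed the pseudocount, filter, scaling, gene types, libraries and replicates, added the replicate number as a block, or used limma voom on the solved reads.

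The members and lists were chosen with earlier results of these data known. The genes named are those of the lists other than neighbours with an adjusted p under 0.05 in any comparison, the 2 nearest expressed neighbours of each member and the 5 genes most like KISS1, with others, such as PLCB3, SP1 and NGFR, chosen after their values were seen. Neighbours farther away were counted, but not all that passed are named. Sequences came from RefSeq (GRCh38) and GENCODE 29, and 1 of the 2 members has a promoter there. Exact Poisson and conditional binomial 95% intervals cover counting error only. Other steps ran in Python 3.11.15 (scipy 1.17.1, numpy 2.4.6, matplotlib 3.10.9, pandas 2.3.3).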

Additional observations from a re-analysis of the deposited data

Results flagged for a closer look

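In 17 cases a listed gene or neighbour passed the adjusted p in opposite directions in the 2 lines under the same change, with replicates that did not overlap. These were 13 of 67 listed genes and neighbours tested for ERK5-ko and 4 of 67 for MEK5DD, beside 7.42% and 5.95% of all 13737 genes by the same criterion. A contrast of the 2 differences passed for each, as the selection fixes, and adds no support.

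In ERK5-ko libraries, 6 genes fell in the first line, MDA-MB-231, and rose in the second, Hs-578T, by log2 differences of -0.37 and 0.31 for NPFFR2, -0.38 and 0.36 for PTK2, -0.51 and 0.71 for PXN, -0.54 and 0.85 for CD82, -1.60 and 0.73 for ARHGDIB and -0.69 and 0.79 for AKAP12. The reverse held for 7 genes, MAPK3 (0.33 and -0.59), CPE (1.48 and -0.59), ETNK2 (0.37 and -0.59), PALM (1.37 and -1.92), CFD (0.73 and -0.85), R3HDM4 (0.30 and -0.39) and HMHA1 (0.59 and -0.47). In MEK5DD libraries the values were -0.37 and 0.66 for NPFFR2, 1.88 and -1.93 for ARHGDIB, -1.06 and 0.56 for FSTL3 and 0.31 and -0.37 for PTBP1. FSTL3, PTBP1, PALM, CFD and HMHA1 are neighbours of KISS1R. NPFFR2 is counted for both changes, though it passed the filter on low values only through the engineered libraries of Hs-578T.

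Several of these calls rest on single libraries or settings, beside those given with the genes above. PTBP1 lost its call in MDA-MB-231 MEK5DD without any 1 of the 4 libraries compared (adjusted p 0.0684 to 0.262). In Hs-578T MEK5DD it lost it without MEK5DD replicate 1 or either parental library (0.0834 to 0.163), with median-ratio scaling (0.0894), with quantile normalization (0.122) and with only the libraries of the line (0.164), where FSTL3 had 0.0676. CFD in MDA-MB-231 ERK5-ko had 0.177 without ERK5-ko replicate 2, 0.0742 and 0.132 without either parental library, 0.0607 at a pseudocount of 0.1 and 0.0653 with only the libraries of the line. HMHA1 had 0.0577 in MDA-MB-231 ERK5-ko without parental replicate 2 and 0.0604 in Hs-578T ERK5-ko without ERK5-ko replicate 2. The cause of these differences was not tested.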

How the results depend on the processing

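The sign of KISS1 did not change under any alternative run. In MDA-MB-231 ERK5-ko its log2 difference of -4.23 became -5.22 at a pseudocount of 0.1, -3.57 at 1, -3.93 with quantile normalization and -5.49 by limma voom, and ran from -4.39 to -4.07 when 1 replicate was left out. In MDA-MB-231 MEK5DD it ran from 0.59 to 0.82. KISS1R and KISS1 in Hs-578T have no fold under any setting. With the replicate number as a block, KISS1 stayed at -4.23 and 0.70, the calls past the fold thresholds were 536, 1923, 1762 and 621 against 532, 1916, 1734 and 602, and no named gene lost its call. In every group, replicate 1 is the earlier passage, and what else same-numbered libraries share is not stated. Their deviations correlated at 0.107 to 0.541, highest between Hs-578T parental and MEK5DD, and the cause was not tested. In Hs-578T MEK5DD, limma voom called 911 genes against 602, 49.7% of them higher against 66.1%. Quantile normalization moved the share of higher calls from 54.7% to 65.7% in MDA-MB-231 MEK5DD and from 66.1% to 77.7% in Hs-578T MEK5DD, where a pseudocount of 0.1 gave 52.9% and only the libraries of the line 55.7%. In MDA-MB-231 ERK5-ko that share was 72.4%, and 59.2% at a pseudocount of 0.1 and 58.5% by limma voom. Of the 5 genes most like KISS1, 0 remained with Spearman's correlation and 2 with a pseudocount of 0.1. Of 1503 values of named genes under alternatives, 168 kept their sign but not an adjusted p under 0.05, and 0 changed sign. Low reads limit KISS1 in ERK5-ko libraries and in Hs-578T, and KISS1R everywhere. The cause of these changes was not tested.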
